A study of Homo sapiens with 2 samples.

Results

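The loops described here lie on the distal long arm of chromosome 3, outside the loci of TP63 and SOX2, in a list of H3K27ac HiChIP loops of KYSE180 cells. They were chosen by position. Both bins of a loop had to start between 120 and 198 Mb of chromosome 3 (hg19), and no bin could start in a window from 180.5 to 182 Mb that holds the SOX2 locus or in one from 188.6 to 190.3 Mb that holds the TP63 locus. The stretch itself was picked on measured values, since its raised coverage and its number of loops were known when its edges were set. These loops numbered 1866 of the 31950 in the list (5.84%), and another 498 loops inside the edges were left out because they had a bin in one of the windows. KYSE180 is an established line of esophageal squamous cell carcinoma (ESCC). Its label was not checked against marker genes, since loops give no expression level. Both libraries, labelled 1 and 2, come from this line after transfection with non-targeting siRNA, so that the series holds 1 group and no depleted or treated arm. The authors deposited 1 list of loops for both libraries, and no value below therefore has a replicate spread, a test across samples or a per-library depth.

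HiChIP joins pieces of chromatin that lie close together in the nucleus, enriches those that carry a chosen mark with an antibody, and reads both ends of each joined piece. H3K27ac, the acetylation of lysine 27 on histone H3, marks active promoters and enhancers, so a loop in this assay is a pair of such regions in contact. In the study's methods the loops called are described as active and associated with p63, the protein that TP63 encodes. How p63 entered the calling is not given in the sources used here, so the list is not taken as every H3K27ac loop of these cells. Gain of the distal long arm of chromosome 3 is a common feature of squamous carcinomas of the esophagus, lung, head and neck and cervix. It carries TP63 and SOX2, which encode transcription factors of the squamous lineage, together with many other genes. Copy number was not measured in this assay.

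The files place no gene inside the stretch, because the annotation at hand is on GRCh38 and the loops are on hg19. Only the order of genes along the chromosome was read from GRCh38 (RefSeq), and no loop was assigned to a gene. In that order 65 protein-coding genes stood between SOX2 and TP63 and 64 beyond TP63, towards the end of the arm. Of 33 genes listed as often gained in squamous carcinomas, 13 preceded SOX2, among them PIK3CA, the catalytic subunit of a phosphoinositide 3-kinase, PRKCI, an atypical protein kinase C, and TERC, the RNA template of telomerase. Another 14 stood between SOX2 and TP63, including EIF4G1, a scaffold of translation initiation, BCL6, a transcriptional repressor, and ETV5, an ETS transcription factor. The last 6 came after TP63, including HES1, a repressor induced by Notch signaling, TFRC, the transferrin receptor, and PAK2, a kinase of the cytoskeleton. Among 26 epithelial, adhesion and migration genes, 19 preceded SOX2, 3 stood between and 4 came after TP63, where MUC4, a membrane-bound mucin, was one. Of 20 transcription and chromatin factors, these numbers were 17, 2 and 1. They were 22, 7 and 1 among 30 genes of other tissues and 17, 5 and 4 among 26 genes that every cell uses. The lists were chosen, and all genes before SOX2 were not counted. These counts therefore do not show whether listed genes gather in any part.

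Each loop joined 2 bins of 2 kb and carried 2 whole numbers. The former was read as contacts (read pairs between both bins) and the latter as first-bin coverage, that is, all counts of that bin whatever its partner. The 1866 loops carried 1942 contacts and used 1970 distinct bins as anchors. Their first bins numbered 1238, with coverage from 1 to 222 and a sum of 33563, which is not a library depth because only bins with a listed loop are counted. As in the list as a whole, nearly every loop rested on 1 contact, namely 1801 of 1866 (96.5%). For a loop with 1 contact, the exact Poisson interval (95%) runs from 0.0253 to 5.57. All intervals cover counting error only, since loops share bins and both libraries, and PCR copies of a read pair cannot be told from separate contacts here.

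The loops were unevenly spread. The part between the windows was the most densely looped, with 403 loops over 6.6 Mb (61.1 per Mb). The part beyond the TP63 window held 276 loops over 7.7 Mb (35.8 per Mb), and the part before the SOX2 window held 1182 loops over 60.5 Mb (19.5 per Mb). The remaining 5 loops passed over a window. In windows of 1 Mb clear of both windows left out, the number of loops had a median of 13 (interquartile range 6 to 39) and ran from 0 to 110. The median over all 2003 windows of the list with a loop was 6, and there windows without a loop were not counted. These medians are a description, since the stretch was picked with its number of loops known. Of the 73 windows of the stretch clear of those left out, the 10 fullest held 767 loops (41.1% of the members), whereas 15 held 3 or fewer and 3 held 0.

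The fullest window ran from 183 to 184 Mb and held 110 loops with 117 contacts. Of the windows of the list with a loop, 1.8% held as many loops. Counted by distinct anchors placed in a window, the fullest was instead that from 185 to 186 Mb, with 86. The windows from 184 to 185 Mb and from 185 to 186 Mb held 98 and 83 loops, so that 3 of the 4 fullest windows lay side by side, between the windows left out. The window from 171 to 172 Mb held 87 loops and the window from 177 to 178 Mb held 78. The loop numbers of these 5 windows were each reached by at most 3.44% of the windows of the list with a loop. Their median coverage lay between 25 and 31, all above the median of 21 over the member first bins. Above the TP63 window, the windows from 196 to 197 Mb and from 195 to 196 Mb were the fullest, with 75 and 63 loops. Before the SOX2 window, smaller peaks stood at 141 to 142 Mb with 61 loops, at 128 to 129 Mb with 57 and at 149 to 150 Mb with 55.

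**Figure D1:**
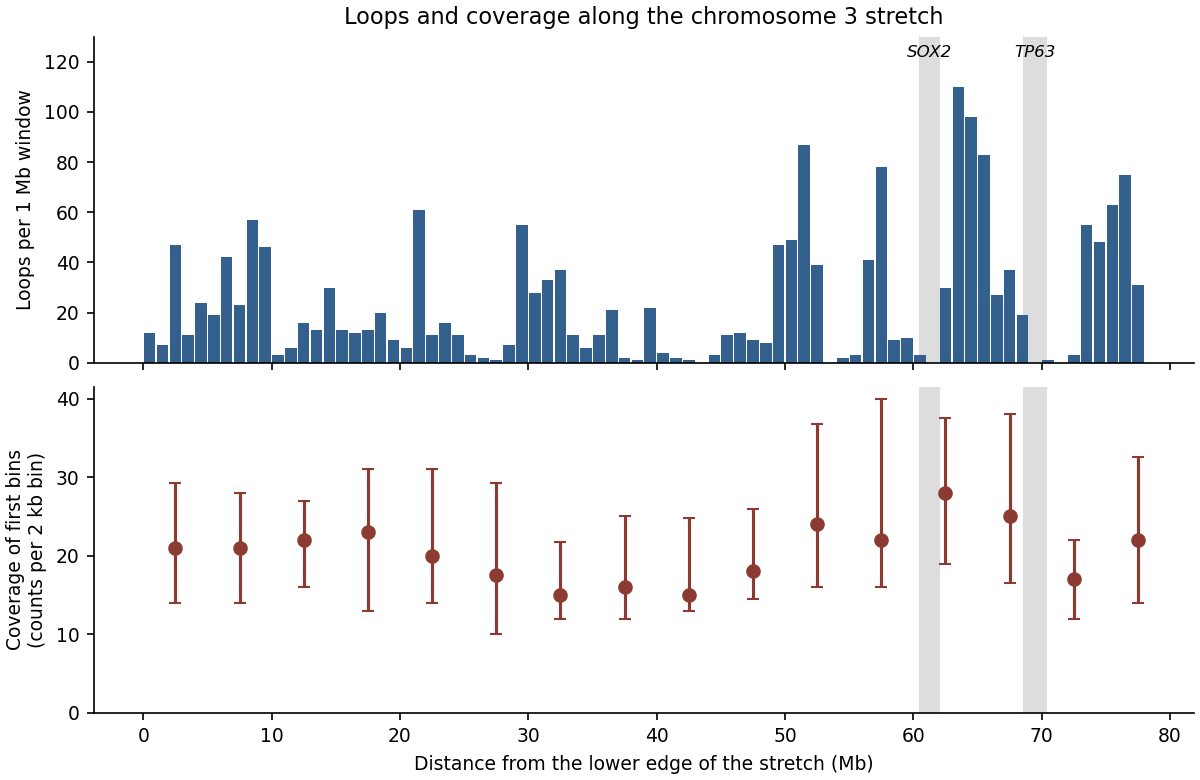
Loops per 1 Mb window (top) and coverage of the member first bins in steps of 5 Mb (bottom, points are medians and lines the interquartile range), against the distance from the lower edge of the stretch in Mb. Grey bands are the SOX2 and TP63 windows left out. The loops gather in separate peaks, the highest with 110, while the medians of coverage stay between 15 and 28. The step with the fewest first bins rests on 10 of them.

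Long runs without a member anchor separated these peaks. The longest ran from 162464001 to 164916000 (2.45 Mb). The next were from 139376001 to 140660000 (1.28 Mb) and from 147112001 to 148362000 (1.25 Mb). In all, 23 such runs of at least 0.5 Mb, the windows left out aside, took up 20.2 Mb or 27% of the stretch. Just above the TP63 window, runs of 0.934 and 0.9 Mb, from 190478001 to 192314000, were parted by 1 member anchor. A run may still hold a bin of a listed loop that is not a member, such as a loop to a window left out. Since the list holds called loops only, described as p63-associated, a region without the mark cannot be told apart here from a marked region without a listed loop.

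Touching anchors were merged into 1211 stretches of anchors, 671 of which (55.4%) were a single bin. The longest were 14 kb, from 170458001 to 170472000 with 12 loops to 11 partners and from 193850001 to 193864000 with 13 loops to 11 partners, followed by 12 kb from 185438001 to 185450000 with 15 loops to 8 partners. None of these 3 was among the 10 most looped stretches. The last of them, however, tied at 15 loops with the tenth of those and was placed after it by position alone. A median anchor stretch had 2 partners, and 1527 of the 1682 joined pairs of stretches were joined by 1 loop. The pair with the most, 6 loops with 1 contact each, lay between 185654001 to 185664000 and 185676001 to 185682000, with 12 kb between them. The next, with 5 loops, joined 134030001 to 134036000 with 134090001 to 134098000 over a gap of 54 kb.

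The most looped anchor stretch lay at 176912001 to 176918000, with 23 loops to 16 partners and 27 contacts. Of these loops 8 went to lower and 15 to higher positions, over 16 to 1166 kb with a median of 150 kb. Its middle bin, from 176914001 to 176916000, had 16 loops, the most of any member anchor, with 20 contacts and a coverage of 152. In the whole list 0.0888% of 34902 anchors had as many loops. Close below it, the stretch from 176894001 to 176900000 had 22 loops to 16 partners with 27 contacts and reached up to 1956 kb. These neighbours, 18 kb apart, were joined by 3 loops, each with 2 contacts. A little higher, the stretch from 177074001 to 177082000 had 19 loops to 13 partners, and the one from 177314001 to 177324000 had 15 loops to 13 partners, and 3 loops of 1 contact each joined this pair. All 4 stretches fall within 430 kb, referred to as the lower block.

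The lower block, from 176894001 to 177324000, held 42 anchors. Of the 101 loops with an end in it, 46 stayed inside and 55 left it. The loops inside had a median span of 131 kb, 5 of them had 2 contacts, and they joined 5.69% of the 809 pairs of anchors at least 10 kb apart. Coverage of its 33 first bins ran from 7 to 152 with a median of 30.

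A second group of hubs lay between the windows. The stretch from 184078001 to 184084000 had 22 loops to 21 partners, the most partners among the 10 most looped stretches, and its loops reached from 16 to 2778 kb with a median of 291 kb. Only 1 of them had 2 contacts. Near it lay the stretches from 183850001 to 183854000 and from 183872001 to 183876000, with 18 loops to 14 partners each. They were shorter (4 kb each), and their farthest partners lay at 662 and 370 kb, respectively. These neighbours were joined by 1 loop with 2 contacts. The upper block that spans all 3, from 183850001 to 184084000 (234 kb), held 29 anchors. Of the 94 loops with an end in it, 36 stayed inside and 58 left. The loops inside had a median span of 53 kb, 6 had 2 contacts, and they joined 9.55% of the 377 pairs of anchors at least 10 kb apart. Coverage of its 22 first bins ran from 14 to 147 with a median of 52. Both blocks were picked because they held several of the most looped stretches, and their values are descriptions.

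**Figure D2:**
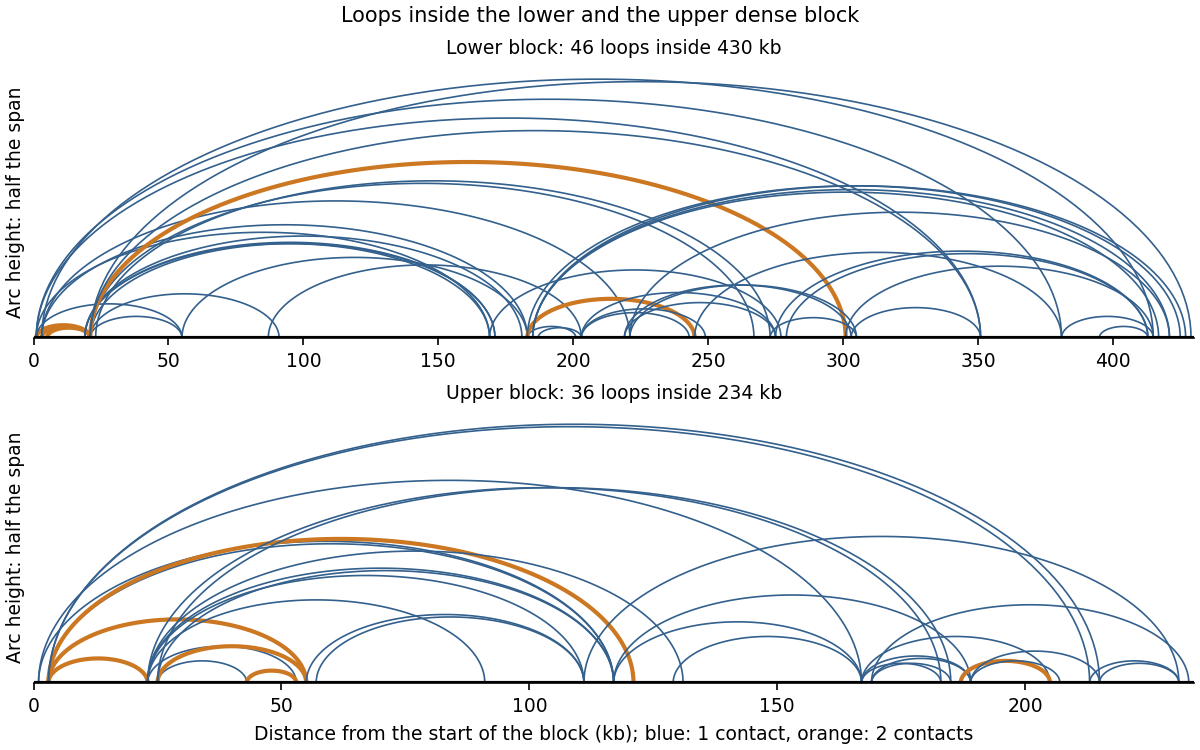
Loops with both bins inside the lower block (top, 46 loops in 430 kb) and the upper block (bottom, 36 loops in 234 kb), drawn as arcs between the bins against the distance from the start of each block in kb, with the arc height at 0.5 of the span. Blue arcs have 1 contact and orange arcs 2, and the orange arcs span 16 to 280 kb in the lower and 10 to 118 kb in the upper block.

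The other 3 of the 10 most looped stretches lay outside both blocks. The stretch from 134090001 to 134098000 had 19 loops to 12 partners, 14 of them to lower positions, with a median span of 60 kb. The stretch from 185676001 to 185682000 had 17 loops to 8 partners, 13 of them to lower positions, with the shortest median span of the 10 (22 kb). The stretch from 196728001 to 196734000 had 17 loops to 14 partners and a median span of 236 kb. None of the loops of the latter 2 had more than 1 contact. Together, 180 loops (9.65% of the members) had an end in the 10 most looped stretches.

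**Figure D3:**
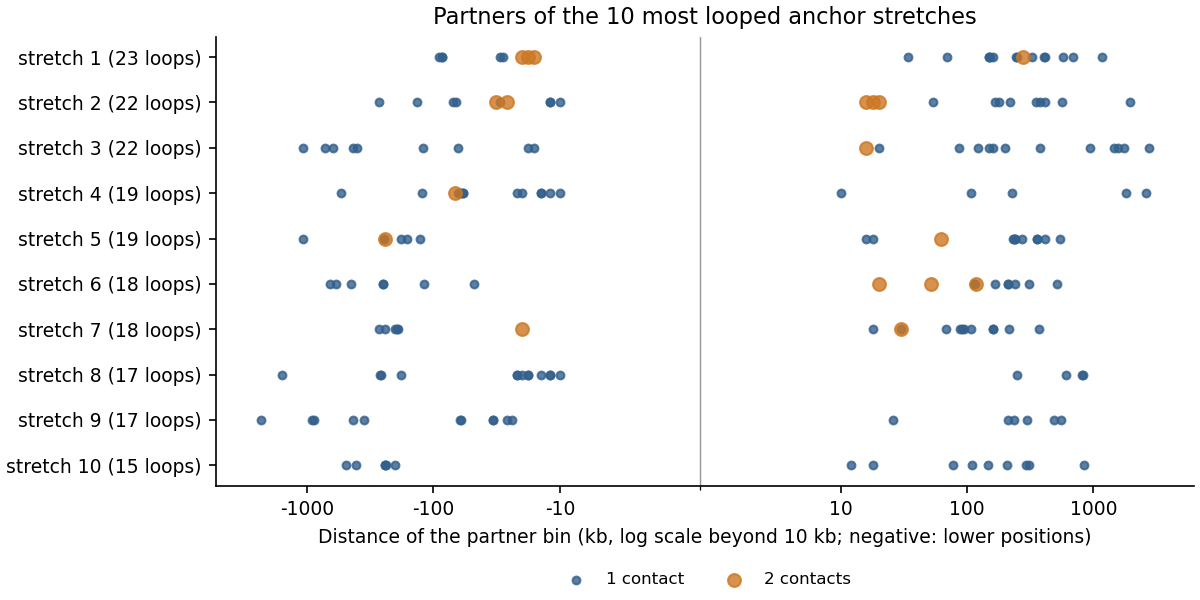
Distance in kb of each partner bin from the anchor in the 10 most looped anchor stretches, on an axis that is logarithmic beyond 10 kb in both directions, with lower positions on the left. Points are loops, blue with 1 contact and orange with 2. Stretches are numbered from the most looped (23 loops) to the tenth (15 loops), and stretches 4, 8 and 9 have most of their loops on the lower side (14, 13 and 11).

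Highly connected anchors took a like share of the stretch and of the whole list, though the counts are not the same measure. Member anchors were counted by member loops alone and anchors of the list by all loops. Loops to the windows left out are thus missing from the member counts. Anchors with 6 or more loops numbered 60 of 1970 (3.05%), against 1063 of 34902 (3.05%) in the list, while anchors with 10 or more numbered 7 (0.355%) against 217 (0.622%). Anchors with a single loop made up 55.4% of the member anchors (95% Wilson interval 53.2 to 57.6%) and 59.5% (59.0 to 60.1%) of the anchors of all other loops. Among loops with a bin in the TP63 window 38.5% (31.8 to 45.6%) of anchors had a single such loop, and among those with a bin in the SOX2 window 46.7% (38.1 to 55.5%). These are counts of listed loops and not tests, since the loops of an anchor are not independent.

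The loops spanned 10 to 4988 kb. Their median span was 144 kb and that of all other loops 118 kb, with quartiles at 40.5 and 458 kb against 36 and 394 kb. Loops of 10 to 50 kb made up 28.2% (95% Wilson interval 26.2 to 30.3%) of the members and 31.2% (30.7 to 31.7%) of the others, a difference of -3.03 percentage points (95% Newcombe interval -5.09 to -0.879). Loops of 0.2 to 1 Mb made up 30.7% (28.6 to 32.8%) and 27.4% (26.9 to 27.9%), a difference of 3.22 points (1.11 to 5.41). Loops of 50 to 200 kb made up 29.0% and 29.7%. Loops of at least 1 Mb numbered 227 or 12.2% (10.8 to 13.7%), where the whole list had 11.7%. The difference of this share from the other loops, 0.531 points, had an interval of -0.922 to 2.13 that includes 0. Set beside the rest of chromosome 3 alone it turned direction, to -1.91 points with an interval of -4.66 to 0.685, which also includes 0. Within the stretch, the share of loops of at least 1 Mb was 13.1% (11.3 to 15.2%) before the SOX2 window, 11.2% (8.45 to 14.6%) between the windows and 7.97% (5.32 to 11.8%) beyond the TP63 window, and neighbouring intervals overlapped. Only loops with both bins in the same part were counted here. Parts of 6.6 and 7.7 Mb leave less room for long loops than a part of 60.5 Mb, so these shares are not like for like.

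The 5 longest loops spanned 4906 to 4988 kb, close to the longest span in the list (5000 kb), and each had 1 contact. The longest joined the bin from 152858001 to 152860000 with that from 157846001 to 157848000. It was followed by one from 129118001 to 129120000 to 134100001 to 134102000. Of the 5, 2 passed over a window left out. The loop from 177114001 to 177116000, inside the lower block, to 182084001 to 182086000 crossed the SOX2 window over 4970 kb, and the loop from 185514001 to 185516000 to 190476001 to 190478000 crossed the TP63 window over 4962 kb. In total 4 loops passed over the SOX2 window, with spans of 3646 to 4970 kb, and 1 over the TP63 window, all with 1 contact and each with at most 7.69% of the coverage of its first bin.

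Loops with 2 or more contacts numbered 65 of 1866, or 3.48% (95% Wilson interval 2.74 to 4.42%), where the whole list had 3.36%. The share was lower at longer spans, from 7.03% (5.15 to 9.55%) at 10 to 50 kb to 3.14% (1.97 to 4.97%) at 50 to 200 kb, 1.57% (0.83 to 2.96%) at 0.2 to 1 Mb and 0.881% (0.242 to 3.15%) from 1 Mb, and the intervals of neighbouring longer classes overlapped. In all other loops these shares were 7.27%, 2.44%, 1.16% and 0.286%. The interval of the difference included 0 in each of the 4 classes, and it does not show that the shares are equal, as it reached up to 2.87 points in the longest class, where 2 member loops had 2 or more contacts. The 65 loops had a median span of 28 kb and a median coverage of 38, against 152 kb and 24 for the 1801 loops with 1 contact.

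**Figure D4:**
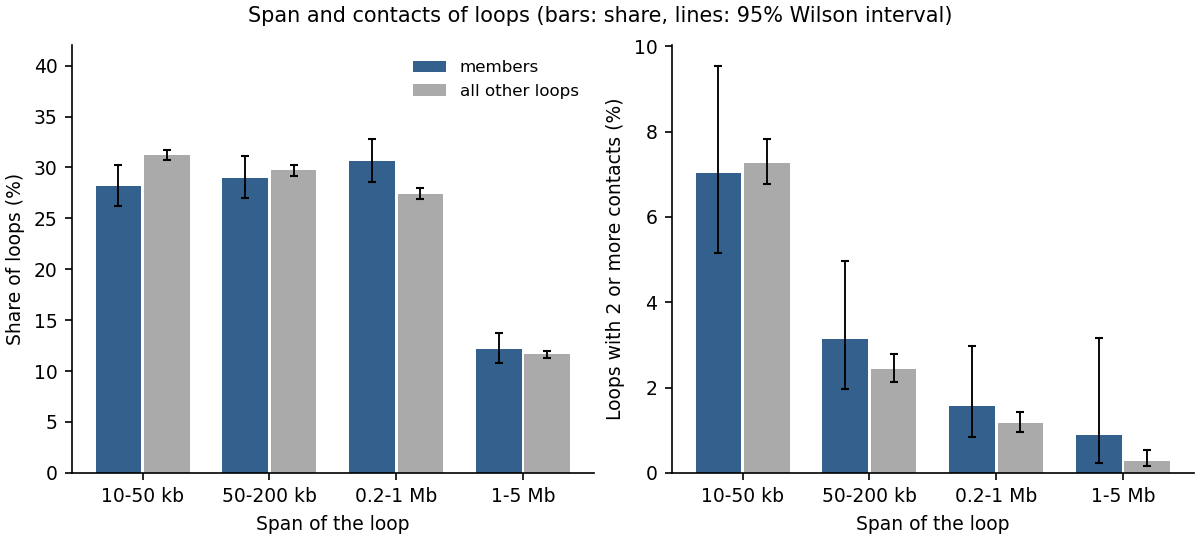
Share of loops in each class of span (left) and share of loops with 2 or more contacts within each class (right), in percent, for the 1866 members (blue) and all other loops (grey), with 95% Wilson intervals as lines. Members have fewer loops of 10 to 50 kb and more of 0.2 to 1 Mb, and the intervals of the shares with 2 or more contacts overlap in every class.

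Only 3 member loops had more than 2 contacts, and all lay near the end of the arm, beyond the TP63 window. The loop from 195384001 to 195386000 to 195716001 to 195718000 had 10 contacts (exact 95% Poisson interval 4.80 to 18.4) over 332 kb, which took 40% of the coverage of 25 of its first bin. The same first bin had 3 contacts over 1970 kb with the bin from 197354001 to 197356000. The loop from 195342001 to 195344000 to 195448001 to 195450000 had 4 contacts over 106 kb, again 40% of its coverage of 10. The list does not show whether reads of these bins map to a single place in the genome, and this was not tested. Reads placed at the wrong copy of a repeated sequence cannot be told from contacts here. For comparison, the median loop with 1 contact took 4.17% of the coverage of its first bin, and 5 of the 1866 loops took 40% or more, the other 3 with a coverage of at most 5. The bins of these 3 loops had few other loops, as only 1 further member loop, with 1 contact, ended in any of them. In the 10 most looped stretches, by contrast, each loop had 1 or 2 contacts. In the whole list 0.457% of loops had 3 or more contacts, against 0.161% of the members.

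The coverage of the first bins, the value for which the stretch was noticed, had a median of 21 (interquartile range 14 to 31), against 12 (7 to 19) for the first bins that no member used. This is a description, as the choice of the stretch rests on it. In steps of 5 Mb with at least 20 first bins, the medians ran from 15 to 28 within the stretch. They ran from 8 to 12.5 in 6 steps of chromosome 3 below it, all of which lay between 10 and 60 Mb. From 60 to 120 Mb no step had at least 20 first bins, so these 6 steps do not describe the region next to the stretch. Steps with fewer first bins were left aside, and below the stretch the medians of such steps ran from 3 to 33, the highest over 1 first bin. Among steps of the stretch with at least 20 first bins, coverage was lowest from 150 to 155 Mb (15) and highest from 180 to 185 Mb (28). It was 27 between the windows, 20 before the SOX2 window and 18 beyond the TP63 window, and the first bins of loops at SOX2 and TP63 had medians of 28.5 and 26.5. At the lower edge of the stretch, the 5 Mb above held 111 loops with 84 first bins, and the 5 Mb below held 9 with 7 first bins. This too is a description, since the number of loops was known when the edge was set. The median coverage was 21 above and 18 below, the latter over these 7 first bins alone. In the 1 Mb below the edge, 6 first bins had a median of 18.5 (range 10 to 52), and in the 1 Mb above 12 first bins had 22.5 (range 3 to 84). At the windows, the 0.5 Mb just above the SOX2 window held 16 member first bins with a median of 18, against 28 for the 41 first bins of the last 0.5 Mb inside it. The 0.5 Mb just below the TP63 window held 9 with a median of 19, against 29 for the 33 first bins of the first 0.5 Mb inside it. The remaining edges went the other way, with 1 member first bin each. It had a coverage of 29 below the SOX2 window, against a median of 23 for 5 first bins inside. Above the TP63 window it had 20, against a median of 18.5 for 8 first bins inside.

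Over first bins with at least 1 listed loop, the mean number of loops rose with coverage within the members, from 1.09 in the lowest of 4 classes to 2.47 in the highest. Taken over all classes, member first bins had 1.51 member loops each, next to 1.47 for the first bins of all other loops, although their median coverage was 1.75 times as high. Listed contacts took a median of 6.25% of the coverage of a member first bin, against 11.1% for the others. In each of 4 classes of coverage, the member first bins had fewer loops. Coverage was not matched within a class. The class of 40 or more is open and reached 222 in members and 1609 in the others. With a coverage of 20 to 39 they had 1.46 loops on average (469 bins) against 1.82 (3809 bins), and with 40 or more they had 2.47 (212 bins) against 2.88 (1198 bins). With 10 to 19 the means were 1.24 and 1.4, and with 1 to 9 they were 1.09 and 1.15. All loops with the bin as their first bin were counted here, those to the windows left out included. The others include the first bins inside those windows. The spread of these means over libraries is unknown.

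**Figure D5:**
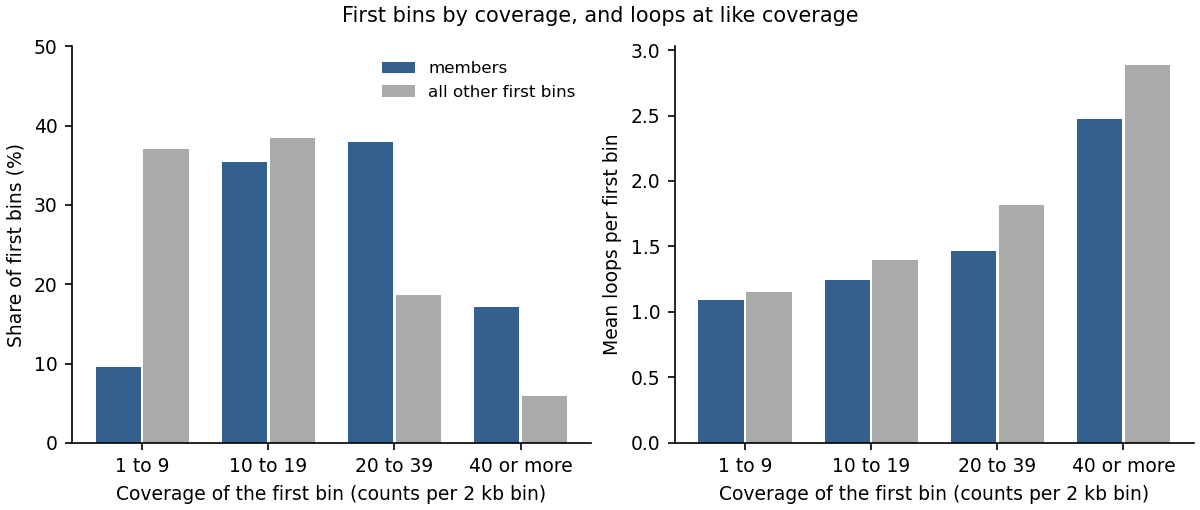
Share of first bins in each class of coverage, in percent (left), and mean number of loops per first bin within each class (right), for member first bins (blue) and first bins that no member used (grey). Members hold a larger share of the classes from 20 upwards (37.9% and 17.1%, against 18.7% and 5.87%) and have fewer loops per bin in each class.

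The loops linked the anchors into long chains. When stretches joined by any path of loops were grouped, 69 groups resulted, 46 of which were a single joined pair. The 5 largest groups held 1725 loops (92.4%). One covered 120 to 146 Mb with 489 loops, one 144 to 158 Mb with 177, one 162 to 173 Mb with 252, one 175 to 189 Mb with 540 and one 193 to 198 Mb with 267. The group with the most loops reached across the SOX2 window, which only 4 single-contact loops passed over. The group that covers 193 to 198 Mb was not joined to it by any member loop, since the loop over the TP63 window belonged to a small group of 3 stretches. Loops with a bin in a window left out are not members, so the rule itself cuts any chain that runs through such a window. The partner was not the nearest anchor stretch in 1519 of the member loops, which crossed at least 1 other stretch. This share was 81.4% (Wilson, 79.6 to 83.1%), next to 78.9% (78.5 to 79.4%) for the rest of the list.

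The windows left out were tied to the stretch by a further 49 loops from SOX2 and 48 from TP63. Of those from the SOX2 window 43 ended above it and 6 below, in 42 bins, 30 of which also anchored a member loop. Of those from the TP63 window 34 ended below it and 14 above, in 41 bins, 25 of which also anchored a member loop. Both windows thus sent most of these loops into the part between them. None of these loops had more than 1 contact, and their median spans were 1326 and 1265 kb.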

How the data were processed

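H3K27ac HiChIP was done by the authors on 2 libraries of KYSE180 cells transfected with non-targeting siRNA. Per the submitters' processing notes and the paper's methods, reads went through HiC-Pro on hg19 and FitHiChIP (Peak-To-All mode) called loops that the methods describe as active and p63-associated, without saying how p63 was used. Loops lacking H3K27ac at an end were then dropped. Versions and thresholds are not given in the sources used here. Both columns of values in the list deposited by the authors are counts without normalization and without a header. FitHiChIP's usual column order was the basis for reading them as contacts and first-bin coverage. The coverage was constant in each of 21636 first bins and exceeded by the contacts in 0 of them.

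The list holds only loops that were called, so counts of loops move with coverage and with the calling. Positions were written 1-based. A window of 1 Mb counted a loop by its midpoint. Shares have Wilson, differences Newcombe and counts exact Poisson intervals at 95%. The members and lists were chosen with earlier results of these data known. Named were the 10 most looped and 3 longest anchor stretches, the loops with the most contacts (past 3 loops, ties at 2 contacts are given as a count), the 5 longest loops, the 5 fullest windows and the 3 longest runs without a member anchor. Further windows, anchor pairs and both blocks were chosen after their values were seen. As the reference is GRCh38, it gave only the order of genes along the chromosome. Gene coordinates and sequences were not set against the loops. Scripts ran on Python 3.11.15 with networkx 3.6.1, scipy 1.17.1, matplotlib 3.10.9, pandas 2.3.3, statsmodels 0.14.6 and numpy 2.4.6, and the functions were tested on a made-up list.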

Additional observations from a re-analysis of the deposited data

How the results depend on the processing

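Of 48 recomputed values of 12 results, 26 stayed within the interval of the main value (counts and lengths, within 1.5 times) and 22 moved. Neither of the differences in share from the other loops that were recomputed had a main interval that excluded 0, so neither has a direction that could be kept or lost. The differences in the share of loops of 10 to 50 kb and of 0.2 to 1 Mb, whose intervals exclude 0, were not recomputed under any alternative. These intervals treat loops as independent although they share bins, so they may be too narrow and are not a test. With loops of 2 or more contacts alone, 65 loops were left, with a median span of 28 kb, 3.08% spanning at least 1 Mb, a median coverage of 38, 91.5% of anchors with 1 loop, at most 7 loops in a 1 Mb window (183 to 184 Mb), anchor stretches of at most 6 kb and 27.7% of loops passing over another stretch. With a minimum span of 20 kb, the median span was 190 kb, 13.9% spanned at least 1 Mb, 2.69% had 2 or more contacts, 58.5% of anchors had 1 loop and 89.5% of loops passed over another stretch. When anchors up to 4 kb apart were merged, the longest stretch was 28 kb, 32.7% of stretches had 1 loop and 74.3% of loops passed over another. The share with 2 or more contacts was 7.03, 1.57 and 0.881% in the classes of 10 to 50 kb, 0.2 to 1 Mb and 1 to 5 Mb. The fullest window was not the same under every setting. On 5 Mb windows it ran from 180 to 185 Mb with 48.2 loops per Mb, and by distinct anchors it was 185 to 186 Mb with 86. Set beside the rest of chromosome 3, which holds the windows left out, the share of loops of at least 1 Mb differed by -1.91 points (95% Newcombe interval -4.66 to 0.685), in place of 0.531, and the coverage ratio was 1.45 in place of 1.75. The cause of these shifts was not tested. The alternatives planned for 3 results on promoters and motifs were not run, since no annotation or genome of the build was used. No paired analysis was possible because the list pools the libraries of a single group, and no replicate could be left out. The depth, mostly 1 contact a loop, does not show which single loops would recur.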
